A study of Drosophila melanogaster with 4 samples.

Results

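The 37 genes of the mitochondrial genome were followed through testes and seminal vesicles of adult *Drosophila melanogaster* males. They were every gene row whose FlyBase identifier carries a symbol beginning with mt:, which gave 13 protein genes, 2 ribosomal RNA genes and 22 tRNA genes out of 17409 gene rows per library. Symbol, strand and position came from the Ensembl release of the BDGP6.54 annotation. The choice used no measured value. All flies were wild-type males of the Oregon-R-modENCODE strain, 4 to 5 days old and kept under constant light. The groups differed in tissue and in the pool of external spike-in RNAs added. The testis group and the seminal vesicle group, which includes the testis terminal epithelium, had 2 libraries each, from dissections on consecutive days. Poly(A) RNA was sequenced, 200 ng of total RNA entered each library, and the labels do not say how many animals were pooled.

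The mitochondrial genome encodes core subunits of the respiratory chain and of ATP synthase, together with the ribosomal RNAs and tRNAs that translate them. Its strands are transcribed as long precursors, and the tRNAs lying between the other genes serve as cleavage points that release single messengers, some of which hold a pair of reading frames. The released RNAs receive short poly(A) tails, so many of them are captured by poly(A) selection. In the fly testis, mitochondria fuse into a large body in each spermatid and then stretch along the sperm tail, and mitochondrial DNA is removed as sperm mature.

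Gene counts summed to between 11120405 and 15528462 per library. The dissections matched their labels by marker genes: all 13 male germline markers tested were higher in testis, and all 7 muscle and 5 epithelial markers tested were higher in seminal vesicle. Germline markers summed to 16924 and 21323 CPM (gene counts divided by library size after TMM scaling, the level used throughout) in the testis libraries. In seminal vesicle they summed to 1641 CPM in replicate 1 and 3446 CPM in replicate 2, so germline counts were present in both. Accessory gland markers stayed at 20.6 to 46.3 CPM, with SP at 0 in testis, and hemocyte markers at 2.41 to 11.3 CPM, with He at 0 in all libraries. Fat body markers summed to 101 to 734 CPM (Fbp1 at 0 throughout), neuron markers to 10.7 to 42.3 CPM, and ejaculatory duct and bulb markers to 10.9 CPM in testis but 177 and 365 CPM in seminal vesicle.

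The mitochondrial genome supplied 2.23% of gene counts in testis replicate 1 and 2.66% in testis replicate 2. In the seminal vesicle libraries its share was 1.45% for replicate 1 and 0.550% for replicate 2. Both testis libraries thus lay above both seminal vesicle libraries, and the seminal vesicle libraries differed from each other more than the testis libraries did. In dissected tissue, fewer cells rich in mitochondria and less mitochondrial RNA per cell cannot be told apart. Counting error was small beside these gaps: the 95% Wilson interval of the lowest share ran from 0.546% to 0.555%. External spike-in RNAs, added from one pool within a tissue but from different pools in the tissues, allow a comparison within each tissue. Fits given below that scale the tissues by spike-in factors therefore cannot separate pool from tissue. There were 68.3 and 68.1 mitochondrial counts per spike-in count in the testis libraries, and 24.2 and 10.1 in the seminal vesicle libraries.

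**Figure D1:**
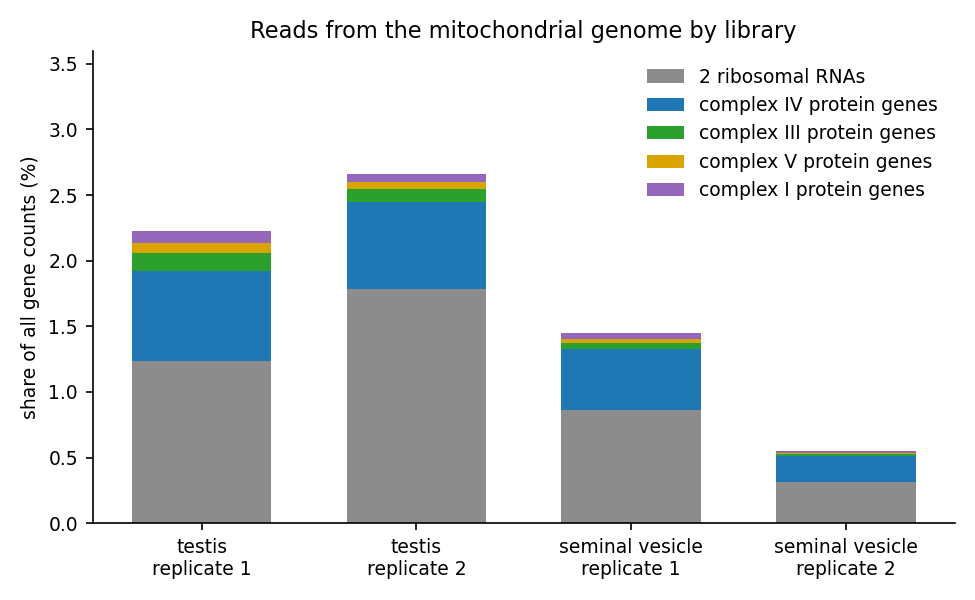
Share of all gene counts (percent, vertical axis) from the mitochondrial genome in each of the 4 libraries, stacked by ribosomal RNAs and by the respiratory complex of the protein genes. The bars reach 2.23% and 2.66% in testis and 1.45% and 0.550% in seminal vesicle, and the ribosomal RNA segment is the tallest in every library.

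One RNA made up most of these reads. The large ribosomal RNA mt:lrRNA (FBgn0013686; mitochondrial genome 12735 to 14058, minus strand of BDGP6.54) stood at 10493 and 16169 CPM in testis and at 9363 and 3710 CPM in seminal vesicle. By count it ranked 2 and 1 among all genes of the testis libraries, and 5 and 18 in the seminal vesicle libraries. The seminal vesicle values were both below the testis values, with replicate 2 far below replicate 1. The small ribosomal RNA mt:srRNA (14131 to 14916, minus strand), which is its partner in the mitochondrial ribosome, was counted only 61, 46, 183 and 63 times in the 4 libraries, testis first. Per count of mt:lrRNA, that was 0.0350% and 0.0166% in testis and 0.159% and 0.182% in seminal vesicle. The ribosomal RNAs together stood at 125% and 205% of the summed protein genes in testis and at 146% and 131% in seminal vesicle, so this balance differed more between the testis libraries than between the tissues.

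Among protein genes, mt:CoI and mt:CoIII led in every library. Both encode subunits of complex IV, the cytochrome c oxidase that passes electrons to oxygen. Levels per length (CPM per kb) allow genes to be compared. Subunit 1, mt:CoI (1474 to 3009, plus strand), stood at 2124 and 2161 CPM per kb in testis and at 1842 and 875 CPM per kb in seminal vesicle. Subunit 3, mt:CoIII (4736 to 5524, plus strand), stood at 2335 and 2235 CPM per kb in testis and at 1853 and 809 CPM per kb in seminal vesicle. Their ranges were separate in testis, with mt:CoIII the higher, and overlapped in seminal vesicle. Subunit 2, mt:CoII (3083 to 3767, plus strand), came next with 1023 and 1353 CPM per kb in testis and 1142 and 547 CPM per kb in seminal vesicle, and the tissues overlapped.

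Then came mt:Cyt-b (10499 to 11635, plus strand), the cytochrome b of complex III, and mt:ATPase6 (4062 to 4736, plus strand), the subunit that forms the proton path of ATP synthase. In testis mt:Cyt-b stood at 1066 and 749 CPM per kb, and in seminal vesicle at 506 and 168 CPM per kb. The level of mt:ATPase6 was 918 and 709.5 CPM per kb in testis, and 450 and 174 CPM per kb in seminal vesicle. These genes overlapped each other within both tissues, and in testis mt:Cyt-b also overlapped mt:CoII, which it exceeded in replicate 1, while for each of them both seminal vesicle libraries lay below both testis libraries.

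Complex I, the NADH dehydrogenase at the entry of the chain, has 7 mitochondrial subunits, all in its membrane arm, and these were the lowest of the protein classes per length. The highest was mt:ND1 (11721 to 12659, minus strand) at 263 ± 45.3 CPM per kb in testis and 123 ± 78.1 in seminal vesicle (mean ± SD, n = 2). It was followed in testis by mt:ND4 (8207 to 9545, minus strand) at 184 ± 55.0, mt:ND3 (5608 to 5961, plus strand) at 125 ± 60.3 and mt:ND5 (6409 to 8125, minus strand) at 70.6 ± 17.1 CPM per kb. In seminal vesicle mt:ND3, mt:ND5 and mt:ND4 stood at 67.9 ± 42.1, 54.0 ± 36.2 and 51.1 ± 34.8 CPM per kb and overlapped, as did mt:ND1 with mt:ND3. In testis mt:ND4 overlapped mt:ND3, and mt:ND3 overlapped mt:ND5. Per library, the complex I genes together supplied 9.25% and 6.93% of the protein gene counts in testis and 7.35% and 6.09% in seminal vesicle, against 69.0% and 76.2%, and 79.0% and 83.0%, for the 3 complex IV genes. The 4 minus-strand protein genes together stood at 9.33% and 6.95% of the counts of the 9 plus-strand protein genes in testis and at 6.75% and 5.51% in seminal vesicle.

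**Figure D2:**
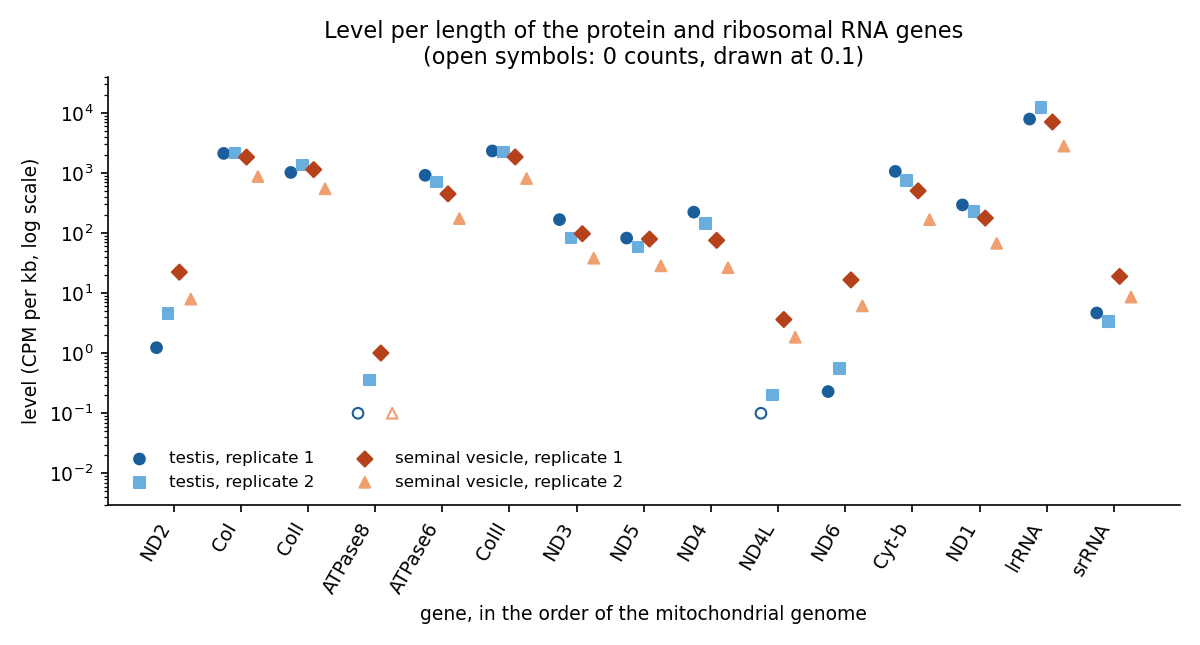
Level per length (CPM per kb, log axis) of the 13 protein and 2 ribosomal RNA genes in their order along the mitochondrial genome, with 1 symbol per library and open symbols for 0 counts. ATPase8, ND4L, ND6, ND2 and srRNA lie far below the other genes, and for ND4L, ND6, ND2 and srRNA the seminal vesicle symbols lie above the testis symbols, while CoI, CoIII, ATPase6, Cyt-b, ND1, ND4 and lrRNA show the opposite order.

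A few genes yielded almost no counts although their neighbours were abundant. The ATP synthase gene mt:ATPase8 (3907 to 4068, plus strand) was counted 0 and 1 times in testis and 2 and 0 times in seminal vesicle, while mt:ATPase6, whose start overlaps its end by 7 bases, was counted between 1098 and 10280 times. The complex I gene mt:ND4L (9545 to 9835, minus strand) was counted 0 and 1 times in testis and 13 and 5 times in seminal vesicle. Its neighbour mt:ND4, which shares 1 base with it, was counted between 331 and 4961 times. Each lies upstream of its partner on the same strand, with no tRNA between them.

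Low counts beside an abundant neighbour recurred in mt:ND6 (9971 to 10495, plus strand), a complex I gene that ends 3 bases before mt:Cyt-b starts. It was counted 2 and 5 times in testis and 107 and 30 times in seminal vesicle. The complex I gene mt:ND2 (240 to 1263, plus strand), flanked by tRNA genes on both sides, was counted 21 and 81 times in testis and 281 and 76 times in seminal vesicle. In the annotation, reads of 50 bases have 106 positions that touch mt:ATPase8 and no other gene of its strand, 290 for mt:ND4L, 528 for mt:ND6, 975 for mt:ND2 and 786 for mt:srRNA. These numbers assume that strand was used in counting, which is not stated, and whether reads of these genes also match elsewhere in the genome was not tested. Low counts of these genes are therefore not read here as low transcript levels, and each is compared with itself across libraries.

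Relative to an abundant neighbour, most of these genes were higher in both seminal vesicle libraries, with mt:ATPase8 the exception: its counts were 0% and 0.0122% of those of mt:ATPase6 in testis and 0.0537% and 0% in seminal vesicle, and overlapped. The count of mt:ND6 was 0.00995% and 0.0342% of the mt:Cyt-b count in testis and 1.52% and 1.69% in seminal vesicle. For mt:ND2 the percentages of the mt:CoI count were 0.0388% and 0.142% in testis and 0.810% and 0.606% in seminal vesicle. The ratio of mt:ND4L to mt:ND4 was 0% and 0.0299% in testis and 1.05% and 1.51% in seminal vesicle. For these 3 ratios and for mt:srRNA over mt:lrRNA, both seminal vesicle libraries lay above both testis libraries. Separate ranges were common in these data, at 84.9% of all tested genes when scaled to the summed protein genes of the mitochondrial genome. The ratio of the tissue means was 72.5 for mt:ND6 over mt:Cyt-b, 7.82 for mt:ND2 over mt:CoI and 6.61 for mt:srRNA over mt:lrRNA.

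All 13 tested members were more than 2-fold lower in seminal vesicle replicate 2 than in replicate 1. Between these libraries the ratios lay within each other's 95% exact counting intervals for mt:ND6 (1.24% to 1.84% and 1.13% to 2.42%) and for mt:ND4L (0.555% to 1.8% and 0.487% to 3.56%). For mt:ND2 over mt:CoI each ratio lay outside the interval of the other (0.718% to 0.911% and 0.477% to 0.759%). Ratios among abundant genes moved less between the tissues. Over mt:CoI, mt:CoII stood at 21.5% and 27.9% in testis and at 27.6% and 27.9% in seminal vesicle, and mt:ATPase6 over mt:CoIII at 33.6% and 27.2% in testis and at 20.8% and 18.4% in seminal vesicle.

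**Figure D3:**
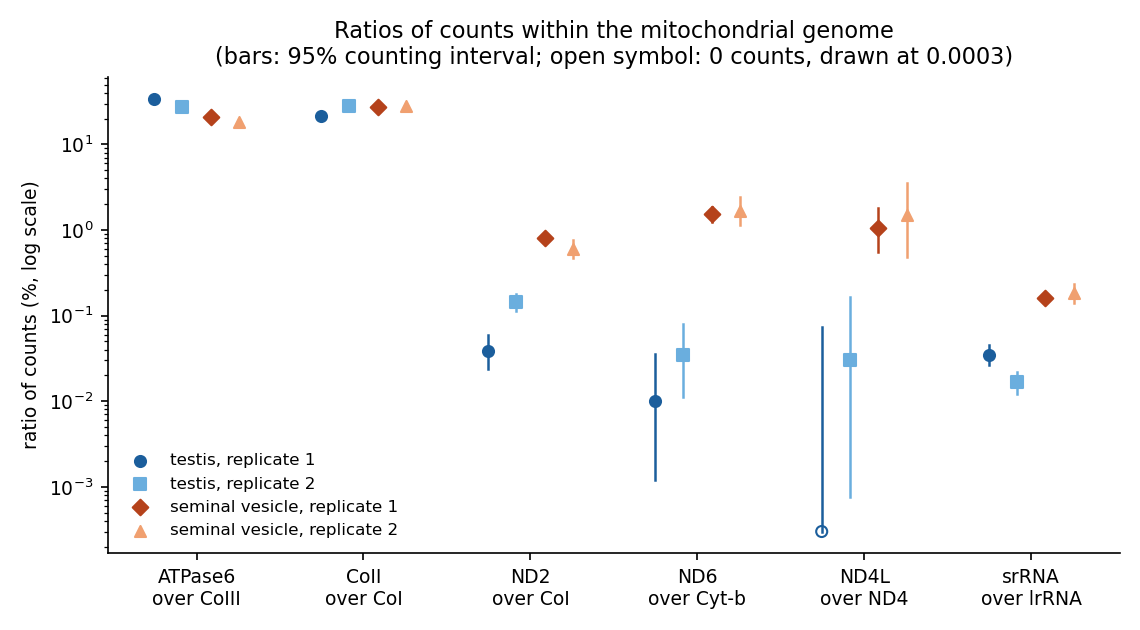
Ratio of the counts of 2 mitochondrial genes (percent, log axis) in each of the 4 libraries, with 95% exact counting intervals as bars and an open symbol for a count of 0. Relative to an abundant partner, ND2, ND6, ND4L and srRNA lie higher in both seminal vesicle libraries than in both testis libraries, while CoII over CoI overlaps between the tissues.

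The tRNA genes yielded almost no counts in these poly(A) libraries, which is not read here as low tRNA levels. Of 22 tRNA genes, 20 had no count in any library, and all tRNAs together had 9 counts. mt:tRNA:Ala-TGC was counted 0 and 2 times in testis and 4 and 1 times in seminal vesicle, and mt:tRNA:Trp-TCA had 2 counts, both in seminal vesicle replicate 2. For a gene with no count, the upper limit set by 3 counts in a library, on the same TMM scale, was 0.181 and 0.175 CPM for testis and 0.245 and 0.321 CPM for seminal vesicle. Intervals and limits here describe counting error alone, because PCR copies could not be separated from distinct molecules.

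Testis was then compared with seminal vesicle gene by gene, with the edgeR quasi-likelihood test and Benjamini-Hochberg adjustment over all 11737 genes that passed the filter on low counts. Of the 37 members 13 passed it, 11 protein genes and both ribosomal RNAs. The called members were 3 higher in seminal vesicle, mt:ND6, mt:ND2 and mt:srRNA, and 2 higher in testis, mt:ND4 and mt:ATPase6, while 8 did not pass the test. Over all tested genes 86.6% were called, 42.1% toward seminal vesicle and 44.5% toward testis, so the 5 calls among 13 members lay below the background. The ranges of the tissues did not overlap for 10 of the 13 members, against 94.7% of all tested genes.

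For mt:ND6 the level was 0.121 and 0.292 CPM in testis and 8.73 and 3.21 CPM in seminal vesicle, and it passed the filter only through seminal vesicle, where it is high, so its call is no support for a tissue difference and its fold is a description. That fold was 28.2 (log2 fold change 4.82 ± 0.73 standard error, adjusted p = 0.0013). It moved between log2 values of 3.90 without seminal vesicle replicate 1 and 5.68 without testis replicate 2. mt:ND2 stood at 1.27 and 4.72 CPM in testis and at 22.9 and 8.14 CPM in seminal vesicle. It was 5.22-fold higher (log2 fold change 2.38 ± 0.70, adjusted p = 0.0189), and its call was lost without testis replicate 1 (adjusted p = 0.0952) and with either seminal vesicle library left out (0.364 for replicate 1 and 0.120 for replicate 2). Its log2 fold change ran from 1.43 without seminal vesicle replicate 1 to 3.77 without testis replicate 2. mt:srRNA stood at 3.68 and 2.68 CPM in testis and at 14.9 and 6.75 CPM in seminal vesicle. It was 3.45-fold higher (log2 fold change 1.79 ± 0.42, adjusted p = 0.00823), and the call was lost without testis replicate 2 (0.0814) and with spike-in factors (0.0780). Its log2 fold change ran from 1.09 without seminal vesicle replicate 1 to 2.23 without replicate 2. For mt:ND4L, which was not tested, 1 count in testis stood against 18 in seminal vesicle. After TMM scaling the seminal vesicle total was 28.1 times that of testis, with exact 95% counting limits of 4.44 and 1172.

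On the testis side, mt:ND4 stood at 299 and 195 CPM in testis and at 101 and 35.5 CPM in seminal vesicle. It was 3.6-fold higher in testis (log2 fold change -1.85 ± 0.54, adjusted p = 0.0189), and the call was lost without testis replicate 1 (0.140) or 2 (0.0599). Its log2 fold change was -2.80 without seminal vesicle replicate 1 and -1.28 without replicate 2. mt:ATPase6 stood at 619.7 and 479 CPM in testis and at 304 and 118 CPM in seminal vesicle. It was 2.61-fold higher in testis (log2 fold change -1.38 ± 0.49, adjusted p = 0.0374), and the call was lost without testis replicate 1 (0.220) or 2 (0.125) and with a filter of 5 CPM in 2 libraries (0.0700). Its log2 fold change was -2.22 without seminal vesicle replicate 1 and -0.85 without replicate 2. Among complex I genes, mt:ND4 was thus called toward testis and mt:ND2 toward seminal vesicle. The fold of mt:ND6 toward seminal vesicle remains a description, as stated above.

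The other 8 members all had a negative log2 fold change, from -0.38 ± 0.50 for mt:ND5 (adjusted p = 0.492) to -1.43 ± 0.56 for mt:Cyt-b (0.0519). Between them lay mt:CoII at -0.49 ± 0.42 (0.305), mt:CoI at -0.66 ± 0.41 (0.179), mt:CoIII at -0.78 ± 0.44 (0.141), mt:ND3 at -0.87 ± 0.52 (0.160), mt:lrRNA at -1.03 ± 0.51 (0.105) and mt:ND1 at -1.10 ± 0.48 (0.0746). A p that misses the threshold does not show equal levels, and calls moved with the library left out. The log2 fold change of mt:Cyt-b was -2.44 without seminal vesicle replicate 1 and -0.84 without replicate 2. For mt:CoI these values were -1.29 and -0.22. The sign for mt:ND5 turned without testis replicate 1 (0.02) and without seminal vesicle replicate 2 (0.17).

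The median log2 fold change was -0.78 over the 13 tested members and -0.11 over all tested genes. Scaling moved both together: library size only gave -1.13 and -0.49, and spike-in factors, with a different pool in each tissue, -1.85 and -1.17. A scaling shifts all genes by nearly the same amount. The difference between the medians (-0.67, -0.65 and -0.68) could therefore hardly move, and its constancy is no test of it. With no filter, over 17 members, the difference was -0.34, and with limma voom -0.81. The difference between the medians was -1.39 without seminal vesicle replicate 1 and -0.19 without replicate 2.

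**Figure D4:**
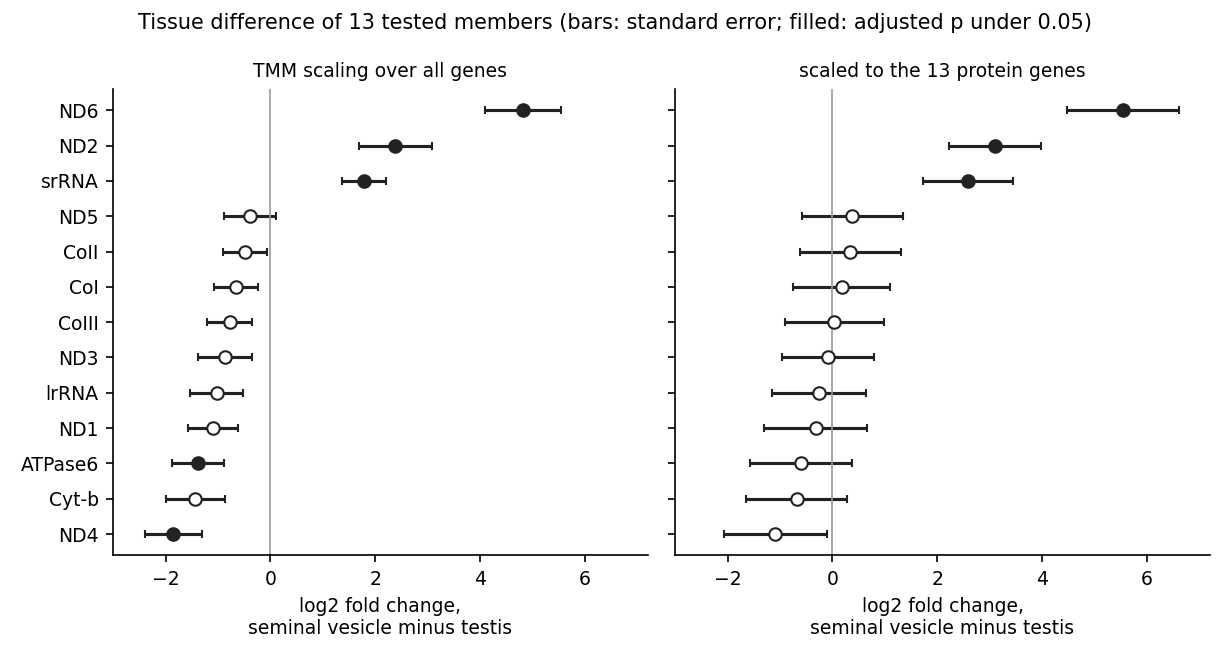
Log2 fold change, seminal vesicle minus testis, of the 13 tested members with its standard error, on all-gene TMM scaling (left) and scaled to the summed counts of the 13 protein genes (right); filled symbols passed an adjusted p of 0.05. On the left ND6, ND2 and srRNA lie to the right of 0 and the other 10 to the left, with ND4 and ATPase6 filled; on the right ND6, ND2 and srRNA are the filled symbols.

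To ask whether the makeup of mitochondrial mRNA differed, apart from its amount, the same test was run with each library scaled to the summed counts of its 13 protein genes. The protein genes tested are part of that sum, so a rise in the share of 1 gene lowers the shares of others. The most abundant genes weigh most in the sum and can move little. The genes called higher in seminal vesicle were again mt:ND6, 46.6-fold (log2 fold change 5.54 ± 1.06, adjusted p = 2.47e-06; again in the test only through its seminal vesicle counts), mt:ND2, 8.59-fold (3.10 ± 0.87, 0.00121), and mt:srRNA, 6.03-fold (2.59 ± 0.86, 0.00594). The members with an unadjusted p under 0.05 were these same 3. No member was called higher in testis with all libraries in the fit, and DESeq2 on the same scaling also called none in that direction. The number toward testis moved with 1 library left out. The background was 58.6% of all genes called, 37.9% toward seminal vesicle and 20.7% toward testis. This fit takes its error from all genes, which vary widely between replicates once mitochondrial amount is divided out: the common dispersion was 0.244, against 0.0398 with TMM scaling. All 3 calls were lost without testis replicate 1 or without testis replicate 2, fits in which no gene of the 11737 was called. With 1 library left out the log2 fold change of mt:ND6 ran from 5.02 to 6.30 and that of mt:ND2 from 2.42 to 4.41, in both cases without testis replicate 1 and 2. On the testis side, that of mt:ND4 ran from -1.33 to -0.81 and that of mt:Cyt-b from -0.91 to -0.46.

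The shares themselves were tighter than those errors. mt:CoI held 38.8% and 42.1% of the protein gene counts in testis and 44.0% and 47.4% in seminal vesicle. mt:Cyt-b held 14.4% and 10.8% in testis and 8.95% and 6.71% in seminal vesicle, and mt:ATPase6 7.36% and 6.07% in testis and 4.73% and 4.14% in seminal vesicle. mt:CoIII was nearly constant, at 21.9%, 22.4%, 22.8% and 22.5% in the 4 libraries. mt:ND4 held 3.55% and 2.47% in testis and 1.58% and 1.25% in seminal vesicle. On this scale 11 of the 13 members had ranges that did not overlap between the tissues, against 84.9% of all tested genes, and the exceptions were mt:ND3 and mt:lrRNA.

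The libraries of a tissue were also set against each other. In seminal vesicle all 13 tested members were lower in replicate 2, by 1.06 (mt:CoII) to 1.59 (mt:Cyt-b) on the log2 CPM scale, with a median difference of -1.37 against 0.16 over all tested genes. In testis the differences went both ways, from -1.02 for mt:ND3 to 1.79 for mt:ND2, with a median of -0.35 against -0.01 over all genes, and mt:lrRNA was 0.62 higher in replicate 2. Nuclear subunits of the same complexes moved far less, with a median of -0.21 over 64 genes in seminal vesicle and 0.01 in testis. Their direction in seminal vesicle was the same, with 58 of the 64 below 0, against 4143 of all 11737 tested genes. Other lists moved with the seminal vesicle replicates too: the median difference was 1.12 over the 13 germline markers, -0.39 over 7 muscle markers, 0.21 over 5 epithelial markers and -1.0 over 5 accessory gland markers, and their part in the mitochondrial difference was not tested. With 1 library on each side these replicate differences have no test.

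**Figure D5:**
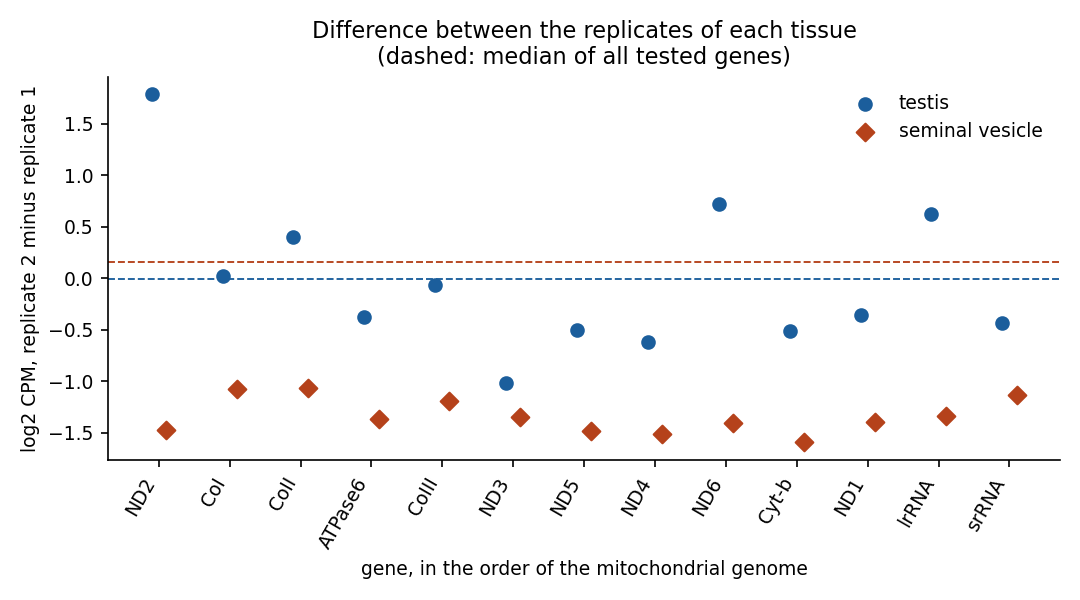
Difference in log2 CPM between replicate 2 and replicate 1 for each of the 13 tested members, in testis and in seminal vesicle, in the order of the mitochondrial genome; dashed lines mark the median of all tested genes in each tissue. All seminal vesicle symbols lie between -1.59 and -1.06, below the dashed lines, while the testis symbols spread on both sides of 0.

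Nuclear partners of these RNAs did not share one direction. Of 64 nuclear subunits of complexes I, III, IV and V that were tested, 30 passed as higher in seminal vesicle, 13 as higher in testis and 21 did not pass, with a median log2 fold change of 0.40 against -0.11 over all tested genes. Read against the all-gene shares of 42.1% and 44.5%, the seminal vesicle count lay near the background and the testis count below it. Paralogs of these subunits were not on the list, so the counts cover the listed genes only and not all nuclear partners used in a tissue. Complex IV had 8 of 9 listed nuclear subunits toward seminal vesicle and none toward testis, at a median of 1.84. Complex V had 10 of 13 toward seminal vesicle and none toward testis (median 0.99), complex III 4 and 3 of 9, and complex I 8 and 10 of 33. ATPsynbeta, the catalytic subunit of ATP synthase, rose from 132 ± 7.11 to 913 ± 101 CPM (adjusted p = 0.000207), and COX7C of complex IV from 13.3 ± 1.2 to 91.2 ± 15.4 CPM (8.90e-05). The tested mitochondrial genes of those complexes had negative log2 fold changes, which passed for mt:ATPase6 but not for mt:CoI, mt:CoII and mt:CoIII (above). The difference between nuclear and mitochondrial genes was not tested. These counts depended on scaling: spike-in factors gave 14 nuclear subunits toward seminal vesicle against 30 toward testis, and library size only gave 22 toward testis. Without testis replicate 1, 5 nuclear subunits passed as higher in testis, and without testis replicate 2, 3 did.

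Of 32 tested nuclear factors that maintain, transcribe, process or translate the mitochondrial genome, 9 favoured seminal vesicle and 15 favoured testis, at a median log2 fold change of -0.26. Without testis replicate 1 these counts were 5 and 9, and without testis replicate 2 they were 4 and 9. Against the all-gene shares of 42.1% and 44.5%, the count toward testis lay near the background. In transcription (2 of 5 higher in seminal vesicle, 1 higher in testis), the mitochondrial RNA polymerase gene PolrMT stood at 26 ± 0.982 CPM in testis and 10.2 ± 0.843 in seminal vesicle (adjusted p = 0.000457). mTerf3, of the transcription termination factor family, rose from 2.31 ± 0.0545 to 7.48 ± 0.777 CPM in seminal vesicle (0.000796), a call lost with spike-in factors (0.139). In genome maintenance (2 of 6 higher in each tissue), TFAM, which packages the genome, did not pass, at 21.0 ± 0.512 and 18.3 ± 3.37 CPM (0.364). The single-strand binding protein gene mtSSB rose from 1.37 ± 0.200 to 5.74 ± 1.46 CPM in seminal vesicle (0.00112), and the protease gene Lon was higher in testis, at 340 ± 3.64 against 77.7 ± 21.0 CPM (0.000804).

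In RNA processing and stability (4 of 9 higher in each tissue), MTPAP, the mitochondrial poly(A) polymerase, stood at 39.4 ± 5.32 CPM in testis and 15.3 ± 0.605 CPM in seminal vesicle (adjusted p = 0.000628). The gene scu, a subunit of the enzyme that cuts the leading ends of mitochondrial tRNAs, rose from 13.3 ± 0.0612 to 129 ± 11.5 CPM in seminal vesicle (4.82e-05). In translation and membrane insertion 8 of 12 were higher in testis and 1 in seminal vesicle. Among them the elongation factor gene mEFTs fell from 572 ± 69.4 to 102 ± 30.2 CPM (0.000622), and OXA1L, which inserts newly made subunits into the inner membrane, from 249 ± 22.4 to 31.9 ± 10.6 CPM (0.000311).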

How the data were processed

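The raw read counts per gene were deposited by the authors as 1 file per library, not normalised. Per the series text, 50-base single-end reads were mapped to FlyBase release 6.06; the submitters' processing notes name CASAVA 1.8.2, TopHat2 2.1.0 and HTSeq 0.6.1p1, and per the labels the kit was stranded, 200 ng of RNA was used and spike-ins (1 pmol) came from a different pool in each tissue. How reads in overlapping genes or on either strand were counted is not given in the sources used here. The 96 spike-in rows and 5 summary rows (11.0% to 14.2% of all reads) entered neither the library sizes nor the tests.

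Symbols, strands and positions came from the BDGP6.54 annotation of the same Release 6 assembly; 1 further mt: symbol was not analysed here. Genes were filtered with filterByExpr (minimum count 10, minimum total 15), TMM-scaled, and compared by edgeR 4.0.16 (quasi-likelihood, robust option) in R 4.3.3 (limma 3.58.1 and DESeq2 1.42.0 in alternatives), at an adjusted p of 0.05. A second fit used the summed counts of the 13 protein genes as library size. The standard error is the log2 fold change over the square root of F. Gene lists (152 entries, 147 matched by symbol, 4 by synonym, 1 unmatched, 2 matched ones not analysed here) named 2 genes each by level and up to 2 by size of change; a part of these is printed. The members and lists were chosen with earlier results of these data known. Both fits were run on simulated counts, at a dispersion below that of the second fit. All simulated libraries had the same expected mitochondrial share, so the second fit was not tested at the spread of these data. Log2 CPM for replicate differences used a prior count of 2.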

Additional observations from a re-analysis of the deposited data

How the results depend on the processing

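Of the members' single values, 135 kept their side of the threshold across alternatives, 13 lost a call, 31 gained one and 2 reversed; with scaling to the protein genes these were 100, 6, 8 and 3. Members called higher in testis numbered 2, but 7 with library size only and 10 with spike-in factors, whose pools differed between the tissues. They numbered 1 with a filter of 5 CPM in 2 libraries and 6 with the replicate block. DESeq2 gave 4, a threshold of 0.01 gave 0, and the number also moved with 1 library left out. Over all 11737 tested genes those higher in testis numbered 5223, 5730 with library size only and 6372 with spike-in factors. The block gave 5122, DESeq2 5018, the 0.01 threshold 4707 and the 5 CPM filter 4072 of 9445. Members higher in seminal vesicle numbered 2 whichever library was left out. Scaled to the protein genes, 0 to 4 were higher in seminal vesicle and 0 to 4 higher in testis without 1 library; the replicate block changed no call there. Among nuclear factors, 2 were higher in seminal vesicle with spike-in factors and 5 with the 5 CPM filter; without 1 library 4 to 9 were higher there and 9 to 15 higher in testis. Nuclear subunits higher in testis numbered 22 with library size only, 30 with spike-in factors (14 higher in seminal vesicle), 8 with the block, 5 at 0.01 and 3 to 18 without 1 library, with 23 to 35 higher in seminal vesicle. No label ties the replicate numbers to a dissection day, and replicate differences of the tissues correlated at 0.0705 over 11737 genes. With the replicate block, mt:Cyt-b, mt:ND1, mt:ND3 and mt:lrRNA (adjusted p = 0.00272, 0.00779, 0.00404 and 0.0455) joined the members higher in testis; it lost the calls of ND-39 (adjusted p = 0.0966) and UQCR-C1 (0.0662) and changed no other call of a named gene.

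Reversed values were mt:ND5 at 0.02 without testis replicate 1 and 0.17 without seminal vesicle replicate 2 (lowest -1.31, without seminal vesicle replicate 1). With scaling to the protein genes they were mt:ND3 at 0.45 and 0.00011 in the same order (lowest -0.48) and mt:lrRNA at 0.15 without testis replicate 2 (lowest -0.57). With library size only mTerf5 turned to -0.24 and UQCR-C2 to -0.15, and with spike-in factors ND-75 to -0.62, COX5A to -0.64, mTerf5 to -0.93 and UQCR-C2 to -0.84. The mean share of gene counts from the members was 2.44% in testis, 2.1% of all reads in the files and 0.931% without the ribosomal RNAs. The cause of these changes was not tested. Fits without 1 library leave a tissue with 1 sample, assumed to vary like the other tissue. Depth limits mt:ATPase8, mt:ND4L and the tRNAs, at 18 or fewer counts per tissue, and mt:ND6 in testis, at 2 and 5 counts.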

Other observations

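Reads that were given to no single gene differed between the tissues. Reads overlapping more than 1 gene made up 3.51% and 3.53% of all reads in the testis libraries and 1.57% and 1.66% in the seminal vesicle libraries. Reads aligning to more than 1 place made up 8.97% and 9.57% in testis and 8.27% and 8.41% in seminal vesicle. How many of these came from the mitochondrial genome was not tested.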
